A study of Mus musculus with 64 samples.

Results

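The 7 genes described here, Crem, Creb1, Atf1, Crtc2, Crtc3, Crebbp and Ep300, encode CREB family transcription factors and their coactivators. They were chosen by symbol, with earlier results of these data known, and are 7 of the 36273 genes in a table of raw 3′ mRNA counts. Their calls and ranks beside those of all genes are thus no independent support. They were measured in 64 libraries of mouse natural killer (NK) cells, lymphocytes of the spleen that kill tumour cells and release cytokines. The DKO group carried GzmbCre, Ptger2-/- and Ptger4 fl/fl and gave 18 libraries, the EP2KO group carried Ptger2-/- and Ptger4 fl/fl without Cre and gave 24, and the WT group was C57BL/6J and gave 22. Ptger2 and Ptger4 encode EP2 and EP4, the receptors for prostaglandin E2 (PGE2) that raise cyclic AMP. In DKO cells EP4 is lost only where Cre is made from Gzmb, the gene of the cytotoxic protease granzyme B, and EP2KO and DKO mice share the loss of EP2 and the floxed Ptger4 alleles. All cells were first cultured for 5 days with small amounts of IL-2 and of IL15:IL15Ra. They were then kept for 5 hours with conditioned medium (CM) of control BRAFV600E cells that make PGE2, with PGE2 itself at 100 ng/ml, or untreated. In the stimulated arm the last 4 of these hours were spent with antibody against the activating receptor NK1.1. These 18 groups held 4 libraries in 11 cases, 3 in 6 cases and 2 in 1 case, WT cells with PGE2 and no stimulation. The labels do not say whether replicates were separate mice or cultures, so the p-values measure the spread between these libraries, which may be technical. The tests did not use the replicate numbers in the labels. Calls of the 7 genes that changed when these numbers were used are given at the end.

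Cyclic AMP activates protein kinase A, which phosphorylates the transcription factors CREB1 and ATF1 at genes that hold a cAMP response element. The acetyltransferases CBP (gene Crebbp) and p300 (gene Ep300) are recruited through the phosphorylated factor. The CRTC proteins are coactivators that are held in the cytoplasm by salt-inducible kinases and enter the nucleus when cyclic AMP or calcium rises. Crem is a member of the same family that gives rise to activators and to repressors, among them the short inducible repressor ICER, whose internal promoter is itself driven by cyclic AMP.

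Library totals ran from 753973 to 1693750 counts with a median of 1256163, so that 1 count was close to 1 CPM, the unit of all levels given here, which scales each library to the same total. All 7 genes were among the 10723 genes that passed the filter on low counts. In the 64 libraries Crem had 67 to 552 counts, Creb1 44 to 272, Atf1 25 to 136, Crtc3 14 to 61, Crebbp 152 to 340, Ep300 98 to 248 and Crtc2 0 to 12. The 10 NK cell markers, led by Gzmb at a mean of 2074 CPM, summed to 3785 to 9896 CPM per library. Of the other cell types, 10 T cell markers summed to 28.3 to 111 CPM, 8 B cell markers to 32.4 to 124 CPM (most of it Ighm, with Cd79a at a mean of 0.0320 CPM), 8 macrophage and dendritic cell markers to 62.2 to 229 CPM and 8 neutrophil markers to 37.5 to 894 CPM. Ptger2 was at 2.17 to 14.6 CPM in DKO, 2.45 to 13.0 CPM in EP2KO and 3.35 to 32.1 CPM in WT libraries, and Ptger4 at 31.7 to 123 CPM in DKO, 14.1 to 63.6 CPM in EP2KO and 9.14 to 80.7 CPM in WT libraries. Which part of each gene is deleted is not given in the sources used here, and 3′ tags from outside a deleted part check nothing, so these levels check neither label. The Y-linked gene Ddx3y was at 52.4 to 177 CPM in DKO libraries, against at most 6.94 CPM in EP2KO and 5.92 CPM in WT libraries, and Xist was at 28.3 to 66.3 CPM in DKO, 477 to 784 CPM in EP2KO and 476 to 970 CPM in WT libraries. In every comparison of DKO with the other genotypes, genotype and sex cannot be told apart.

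Crem lies on chromosome 18 from 3266048 to 3337748 on the minus strand of GRCm38, with 39 annotated transcripts that have 26 distinct starts and 27 distinct ends. Counts were made per gene, so the ICER form was not separated from the longer forms. The 3′ tags of all forms enter the 1 value per library given here.

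Both treatments went with higher Crem in EP2KO and WT cells and not detectably in DKO cells. In unstimulated DKO cells Crem was at 85.7, 134 and 105 CPM with CM and at 98.9, 131 and 104 CPM with PGE2, against 78.8, 101 and 77.1 CPM in untreated cells. In unstimulated EP2KO cells it was at 239, 296, 435 and 222 CPM with CM and at 318, 351, 389 and 228 CPM with PGE2, against 72.3, 62.6, 67.4 and 83.0 CPM in untreated cells. Unstimulated WT cells had 366, 258, 405 and 360.2 CPM with CM and 346 and 479.7 CPM with PGE2, against 103, 76.6, 87.7 and 83.9 CPM in untreated cells. Every treated EP2KO or WT library was thus above every untreated library of its genotype, by a wide margin, while treated and untreated DKO libraries overlapped.

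The log2 fold change of Crem with CM was 2.06 ± 0.19 in EP2KO and 1.98 ± 0.19 in WT unstimulated cells (edgeR quasi-likelihood test, standard errors, adjusted p = 2.97e-12 and 2.92e-12), or 4.16-fold and 3.94-fold. With PGE2 it was 2.17 ± 0.19 in EP2KO and 2.23 ± 0.21 in WT cells (edgeR adjusted p = 5.05e-13 and 5.89e-12), or 4.51-fold and 4.69-fold. In DKO cells the changes were 0.35 ± 0.22 with CM and 0.38 ± 0.22 with PGE2, with 95% intervals of −0.10 to 0.79 and −0.06 to 0.82 (edgeR adjusted p = 0.995 and 1). In this fit, without the replicate numbers, Crem was the only one of the 7 genes called in EP2KO or WT cells, at an adjusted p under 0.05. None was called in DKO cells. Other members called with the replicate numbers are given at the end. Over all genes tested, CM called 0% in DKO, 4.37% in EP2KO and 8.23% in WT, and PGE2 called 0% in DKO, 3.15% in EP2KO and 2.97% in WT. In DKO 485 genes with CM and 184 with PGE2, none of them among the 7, had an unadjusted p under 0.05 in edgeR, and DESeq2 also called 0. Groups did not overlap for 12% of genes with CM in EP2KO, 18.4% with CM in WT, 9.01% with PGE2 in EP2KO and 24.9% with PGE2 in WT.

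With anti-NK1.1 the same picture held at lower treated levels. In stimulated DKO cells Crem was at 135, 128 and 99.9 CPM with CM and at 127.5, 111 and 89.5 CPM with PGE2, against 87.6, 100.0 and 87.1 CPM untreated. Stimulated EP2KO cells had 209, 220.2, 281 and 185 CPM with CM and 197, 226, 277 and 166 CPM with PGE2, against 70.9, 73.3, 98.8 and 52.1 CPM untreated. In stimulated WT cells it was at 239, 198, 234 and 274 CPM with CM and at 310.3, 237, 327 and 301 CPM with PGE2, against 69.3, 62.6, 85.1 and 96.6 CPM untreated. The lowest treated EP2KO or WT library lay above the highest untreated one of the same genotype, and the DKO libraries overlapped again. The log2 fold changes with CM were 0.40 ± 0.22 in DKO, 1.60 ± 0.19 in EP2KO and 1.59 ± 0.19 in WT cells (edgeR adjusted p = 0.781, 2.63e-09 and 1.56e-09), and those with PGE2 were 0.25 ± 0.22, 1.56 ± 0.19 and 1.91 ± 0.19 in the same order of genotypes (edgeR adjusted p = 1.00, 5.43e-09 and 3.39e-12). In the same fit, without the replicate numbers, Crem was again the only one of the 7 called in EP2KO and WT cells. CM called 0.0746% of all genes in DKO, 10.4% in EP2KO and 15.4% in WT stimulated cells, and PGE2 called 0%, 7.29% and 15.6%. With PGE2 in DKO, 260 genes had an unadjusted p under 0.05 in edgeR, none of them among the 7, and DESeq2 called 0. Groups did not overlap for 9.62% to 15% of genes in the EP2KO and WT comparisons.

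**Figure D1:**
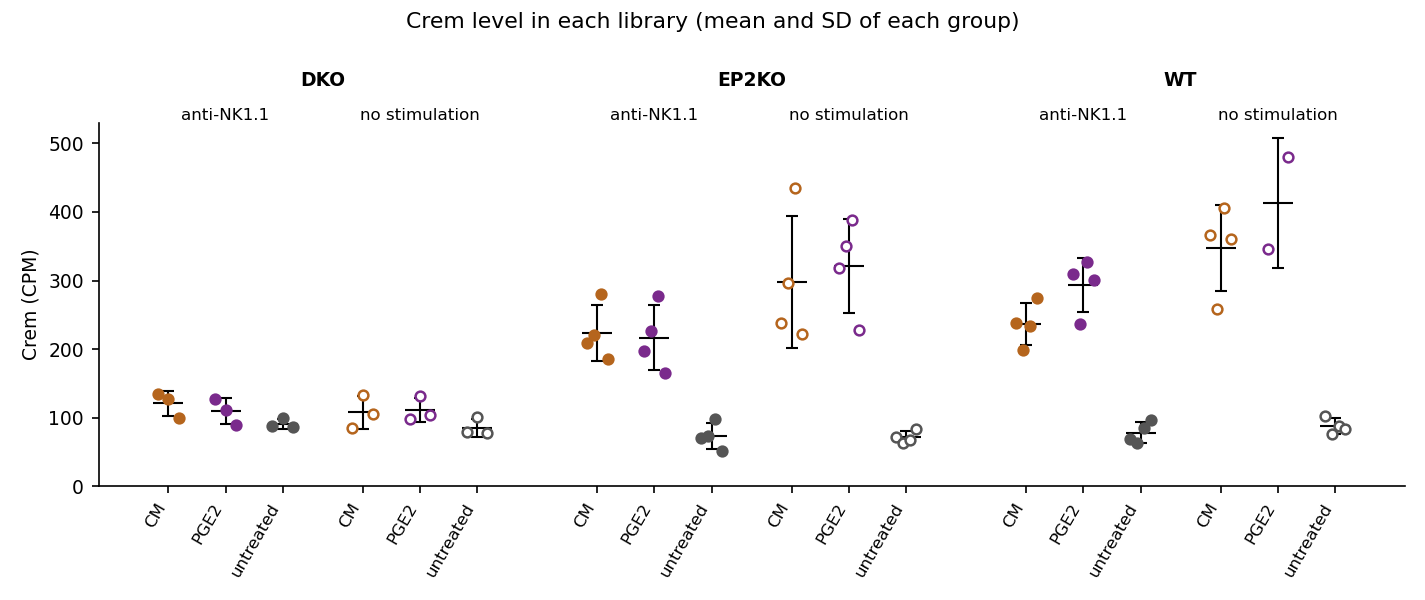
Crem level in CPM (vertical axis, linear, from 0) in each of the 64 libraries, by genotype, stimulation and treatment; filled points are libraries with anti-NK1.1, open points without, and the bars give the mean and SD of each group. All CM and PGE2 libraries of EP2KO and WT sit between 166 and 479.7 CPM, above all untreated libraries and all DKO libraries, which reach 135 CPM at most.

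Treated EP2KO and WT libraries also differed from untreated ones in markers of cell types. In unstimulated cells the NK cell markers summed to 3785 to 4812 CPM with CM and 4248 to 5423 CPM with PGE2 in EP2KO, against 5122 to 7325 CPM untreated. In unstimulated WT cells they summed to 4070 to 4876 CPM with CM and 4311 to 4914 CPM with PGE2, against 6723 to 7443 CPM untreated. Of the 10 markers, 3 were lower with CM and 2 with PGE2 in EP2KO, and 5 with CM and 2 with PGE2 in WT, with none higher. Ncr1 and Klrb1c were among the lower ones in each of these comparisons. CM called 2.14% of all genes as lower in EP2KO and 3.68% in WT, and PGE2 1.4% and 1.05%. In stimulated cells the sums overlapped in EP2KO (4814 to 6576 CPM with CM and 4531 to 7152 CPM with PGE2, against 5661 to 7964 CPM untreated) and, with CM, in WT (5015 to 6001 CPM with CM and 5058 to 5846 CPM with PGE2, against 5909 to 9896 CPM untreated). There CM called 5.91% of all genes as lower in EP2KO and 9.22% in WT, and PGE2 3.9% and 9.63%. Of the markers, 3 were lower with each treatment in EP2KO and 5 in WT. Only 1 was higher, the receptor gene Klre1 with CM in EP2KO (0.51 ± 0.14, edgeR adjusted p = 0.0102). T cell markers in unstimulated WT cells summed to 28.3 to 46.5 CPM with CM and 40.1 to 55.4 CPM with PGE2, against 61.3 to 79.1 CPM untreated. B cell markers summed to 37.9 to 54.6 and 32.4 to 44.0 CPM, against 67.2 to 94.5 CPM untreated. In unstimulated EP2KO cells the T cell sums were 41.6 to 75.2 CPM with CM and 55.8 to 63.5 CPM with PGE2, against 57.2 to 81.4 CPM untreated. The B cell sums were 57.5 to 69.5 and 39.8 to 51.4 CPM, against 63.8 to 108 CPM untreated. Of the 6 T cell markers tested, Cd6 was higher where Crem was higher in 4 of the 8 comparisons. It rose by 2.08 ± 0.51 in unstimulated WT cells with PGE2, and in stimulated cells by 1.45 ± 0.41 with CM and 1.74 ± 0.40 with PGE2 in WT and by 1.65 ± 0.44 with PGE2 in EP2KO (edgeR adjusted p = 0.00955 or lower). Its means there were 8.11 to 11.3 CPM, against 2.39 to 3.37 CPM untreated. Lat and Cd3g were lower in 1 WT comparison each. Of the 5 macrophage and dendritic cell markers tested, Cd14 was higher in stimulated EP2KO cells by 2.67 ± 0.48 with CM and 1.89 ± 0.51 with PGE2 (edgeR adjusted p = 3.36e-05 and 0.00990), at means of 19.7 and 11.5 CPM, against 2.97 CPM untreated. Itgax was lower in 7 of the 8 comparisons. The sums of macrophage and dendritic cell markers (62.2 to 139 CPM with CM, 65.7 to 111 CPM with PGE2 and 80.9 to 124 CPM untreated) and neutrophil markers (75.0 to 401 CPM with CM, 76.8 to 447 CPM with PGE2 and 56.1 to 331 CPM untreated) overlapped in unstimulated WT cells, and no neutrophil marker was called in the 8 comparisons. Library totals of unstimulated WT cells were 765903 to 1013588 counts with CM, 1137647 to 1172359 with PGE2 and 1026568 to 1352953 untreated, and mitochondrial genes took on average 11.1%, 10.8% and 8.93% of the counts. The part of these differences in the Crem values was not tested. In bulk samples of this kind, fewer cells of a type and less RNA per cell cannot be told apart.

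The difference between genotypes was tested directly, as the treatment effect in DKO cells minus that in EP2KO or WT cells. Neutrophil marker sums also differed between genotypes, with group means of 75.2 to 122 CPM in DKO, 381 to 549 CPM in EP2KO and 97.8 to 262 CPM in WT. Single libraries of the genotypes overlapped, and the part of these sums in the Crem differences was not tested. Without stimulation the CM effect on Crem differed by −1.71 ± 0.29 log2 units between DKO and EP2KO cells and by −1.63 ± 0.29 between DKO and WT cells (edgeR adjusted p = 0.00111 and 0.00125). The PGE2 effect differed by −1.80 ± 0.29 against EP2KO and −1.85 ± 0.31 against WT (edgeR adjusted p = 2.92e-04 and 2.46e-04). With anti-NK1.1 the differences were −1.20 ± 0.29 and −1.19 ± 0.29 for CM (edgeR adjusted p = 0.0366 and 0.0151) and −1.31 ± 0.29 and −1.66 ± 0.29 for PGE2 (edgeR adjusted p = 0.00741 and 6.00e-05), against EP2KO and WT in turn. Crem was the only one of the 7 genes called in these 8 tests. Without stimulation these tests called 0.214% of all genes against EP2KO and 0.28% against WT for CM, and 0.354% and 0.485% for PGE2. With anti-NK1.1 they called 0.345% and 1.21% for CM, and 0.951% and 4.27% for PGE2. The stimulated CM difference between DKO and EP2KO was no longer called when only the groups compared were fitted (−1.24, adjusted p = 0.0776) or when 1 library was left out, for 9 of the 14 libraries in that test: DKO CM replicates 2 and 3, DKO untreated replicates 1, 2 and 3, EP2KO CM replicate 3 and EP2KO untreated replicates 1, 2 and 4 (adjusted p = 0.0563 to 0.157). The difference between DKO and WT was lost without DKO untreated replicate 2 (adjusted p = 0.0624) or DKO CM replicate 3 (adjusted p = 0.0752).

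The EP2KO and WT effects were close, and the difference between them was not called in any of the 4 tests, in which 0% of all genes were called in edgeR and 0 in DESeq2. In these tests 266 to 465 genes had an unadjusted p under 0.05 in edgeR, none of them among the 7. For CM it was 0.08 without stimulation (95% interval −0.45 to 0.61) and 0.01 with it (−0.52 to 0.53), and for PGE2 −0.06 (−0.64 to 0.53) and −0.35 (−0.88 to 0.18). In untreated cells Crem was also not called between genotypes, with log2 differences from −0.31 (EP2KO minus WT, unstimulated) to 0.32 (DKO minus EP2KO, stimulated), and 0 of the 7 genes were called, where the share of all genes was 0.056% to 0.131%. In the 4 DKO comparisons with treatment all estimates were above 0. Averaged over both treatments and both states, a contrast chosen after these values were seen, the DKO change was 0.34 ± 0.14 (95% interval 0.07 to 0.61, unadjusted p = 0.0137, adjusted p = 0.951 in edgeR), with 0% of all genes called.

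CM and PGE2 were compared directly, since their effects share the untreated libraries. The log2 difference of Crem, CM minus PGE2, was −0.03 in DKO, −0.12 in EP2KO and −0.25 in WT unstimulated cells, with 95% intervals of −0.47 to 0.40, −0.47 to 0.23 and −0.67 to 0.17. With anti-NK1.1 it was 0.15 (−0.29 to 0.58) in DKO, 0.04 (−0.31 to 0.40) in EP2KO and −0.31 (−0.67 to 0.04) in WT cells. None was called, and the 6 tests called 0% or 0.00933% of all genes.

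Stimulation alone left Crem without a call, at a log2 change of 0.10 ± 0.22 in DKO, 0.05 ± 0.20 in EP2KO and −0.17 ± 0.20 in untreated WT cells (edgeR adjusted p = 0.782, 0.886 and 0.510), although it called 30.2%, 33.3% and 42% of all genes. In treated cells Crem was lower with anti-NK1.1 than without it in CM-treated WT cells (−0.55 ± 0.18, edgeR adjusted p = 0.0212) and in PGE2-treated EP2KO cells (−0.57 ± 0.18, edgeR adjusted p = 0.0131), where 16.9% and 23.5% of all genes were called. The stimulated and unstimulated libraries overlapped in both. The change was −0.41 ± 0.18 in CM-treated EP2KO cells and −0.49 ± 0.21 in PGE2-treated WT cells, neither called (edgeR adjusted p = 0.0905 and 0.145), and 0.15 ± 0.22 and −0.03 ± 0.22 in DKO cells with CM and with PGE2. The call in WT with CM was lost without unstimulated replicate 1, 3 or 4 or stimulated replicate 2 (adjusted p = 0.0513 to 0.0874), and that in EP2KO with PGE2 without unstimulated replicate 3 or stimulated replicate 4 (adjusted p = 0.0736 and 0.0633). Whether the treatment effect itself differed between stimulated and unstimulated cells was tested in each genotype, and Crem was called in none of the 6 tests, which called 0% to 2.19% of all genes. The largest estimate was −0.61 ± 0.27 for PGE2 in EP2KO cells (edgeR adjusted p = 0.521).

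Ordered by the group mean of Crem, 8 groups formed an upper set and 10 a lower set. At the top were unstimulated WT cells with PGE2, at 413 ± 94.8 CPM (SD, n = 2), then unstimulated WT with CM (347 ± 62.7), EP2KO with PGE2 (321 ± 68.4) and EP2KO with CM (298 ± 96.5). The stimulated groups followed, WT with PGE2 (294 ± 39.5), WT with CM (236 ± 31.0), EP2KO with CM (224 ± 40.7) and EP2KO with PGE2 (217 ± 47.4), each with n = 4. Next came the 4 treated DKO groups, between 108 ± 24.2 and 121 ± 18.4 CPM, and then the 6 untreated groups, from 91.6 ± 7.31 CPM in stimulated DKO cells to 71.3 ± 8.73 CPM in unstimulated EP2KO cells. Library ranges of neighbours in this order overlapped at every step but the one between stimulated EP2KO cells with PGE2 (lowest library 166 CPM) and stimulated DKO cells with CM (highest library 135 CPM). The highest group mean was 5.79 times the lowest, and the SD of the 18 log2 group means lay at the 97.6th percentile of all genes tested.

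A neighbouring gene of the other strand, Gm6225, overlaps exons at the 5′ end of Crem, and whether counting used strand is not stated. Its group means were 2.74 to 10.4 CPM, well under those of Crem, and it was called in none of the 12 treatment comparisons. Nearest to a call was its change with PGE2 in unstimulated EP2KO cells (1.52 ± 0.46, edgeR adjusted p = 0.0512), at means of 7.86 CPM, against 2.74 CPM untreated. With CM in these cells the change was 1.125 ± 0.50 (edgeR adjusted p = 0.240). Gm6225 was higher with anti-NK1.1 in untreated EP2KO cells (1.24 ± 0.47, edgeR adjusted p = 0.0349). Gm37186 lies within Crebbp on the same strand, had group means of 2.73 to 9.82 CPM and was also called in none of the 12 treatment comparisons. It was higher with anti-NK1.1 in untreated WT cells (1.79 ± 0.64, edgeR adjusted p = 0.0211).

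Of the other activators, Creb1 had lower mean values with treatment than without in EP2KO and WT cells, and was called in none of the 12 treatment comparisons. It encodes CREB1, the founding member of the family, and lies on chromosome 1 from 64532645 to 64604548. Unstimulated EP2KO cells had 94.4, 64.7, 61.1 and 83.9 CPM with CM and 80.8, 65.8, 78.7 and 88.8 CPM with PGE2, against 133, 97.8, 97.1 and 87.8 CPM untreated. Unstimulated WT cells had 97.3, 76.9, 89.0 and 100.1 CPM with CM and 86.4 and 78.2 CPM with PGE2, against 113, 110.1, 141 and 99.7 CPM untreated. The PGE2 libraries of WT lay below all untreated ones, which was so, in either direction, for 24.9% of all genes, and the other ranges overlapped. The log2 changes were −0.45 ± 0.19 with CM and −0.41 ± 0.19 with PGE2 in EP2KO, and −0.35 ± 0.19 and −0.49 ± 0.23 in WT (edgeR adjusted p = 0.218 to 0.340), while in DKO they were 0.02 ± 0.21 and −0.14 ± 0.21. In stimulated cells the estimates were 0.08 and −0.12 in DKO, −0.22 and −0.26 in EP2KO and −0.46 and −0.46 in WT, with CM and PGE2 in turn. Without untreated stimulated WT replicate 4, which at 83.3 CPM was the lowest of its group (others 109 to 196 CPM), both stimulated WT changes were called at −0.62 (edgeR adjusted p = 0.0139 with CM and 0.0140 with PGE2). Over the 18 groups the mean of Creb1 was highest in untreated stimulated WT cells at 131 ± 48.2 CPM (SD, n = 4) and lowest in unstimulated EP2KO cells with CM at 76.0 ± 15.8 CPM (n = 4), and the library ranges of all neighbours in the order overlapped.

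The coactivator genes Crebbp, on chromosome 16 from 4081328 to 4213997, and Ep300, on chromosome 15 from 81585351 to 81652077, had higher values with CM than without in unstimulated WT cells, and were likewise called in none of the 12. Crebbp had 210.2, 226, 272 and 203 CPM with CM in these cells, against 153, 202, 169 and 158 CPM untreated, and Ep300 had 176, 153, 181 and 162 CPM, against 113, 147, 117 and 114 CPM untreated. All CM libraries were above all untreated libraries for both genes, which was so, in either direction, for 18.4% of all genes. The log2 changes were 0.42 ± 0.17 for Crebbp and 0.45 ± 0.16 for Ep300 (edgeR adjusted p = 0.119 and 0.0586). Ep300 was called without untreated replicate 2 (0.54, edgeR adjusted p = 0.0346), the library at 147 CPM that stood apart from the 3 others. Both genes were called when only the groups compared were fitted, at 0.41 for Crebbp and 0.44 for Ep300 (edgeR adjusted p = 0.0123 and 0.00821). The Crebbp change was 0.43 ± 0.20 with PGE2 in the same cells (edgeR adjusted p = 0.325), and 0.33 ± 0.17 with CM and 0.32 ± 0.17 with PGE2 in unstimulated EP2KO cells (edgeR adjusted p = 0.351 and 0.454). In unstimulated DKO cells it was 0.27 ± 0.19 with CM and −0.05 ± 0.19 with PGE2 (edgeR adjusted p = 0.995 and 1). Its estimates in stimulated cells were 0.03 to 0.12 in all genotypes. For Ep300 the other treatment changes ran from −0.12 in unstimulated DKO cells with PGE2 to 0.30 in unstimulated WT cells with PGE2. Group means spanned a narrow range, 165 ± 27.8 to 229 ± 59.8 CPM for Crebbp and 118 ± 17.0 to 168 ± 12.9 CPM for Ep300, and the spreads of their group means lay at the 8.645th and 7.545th percentiles of all genes tested.

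**Figure D2:**
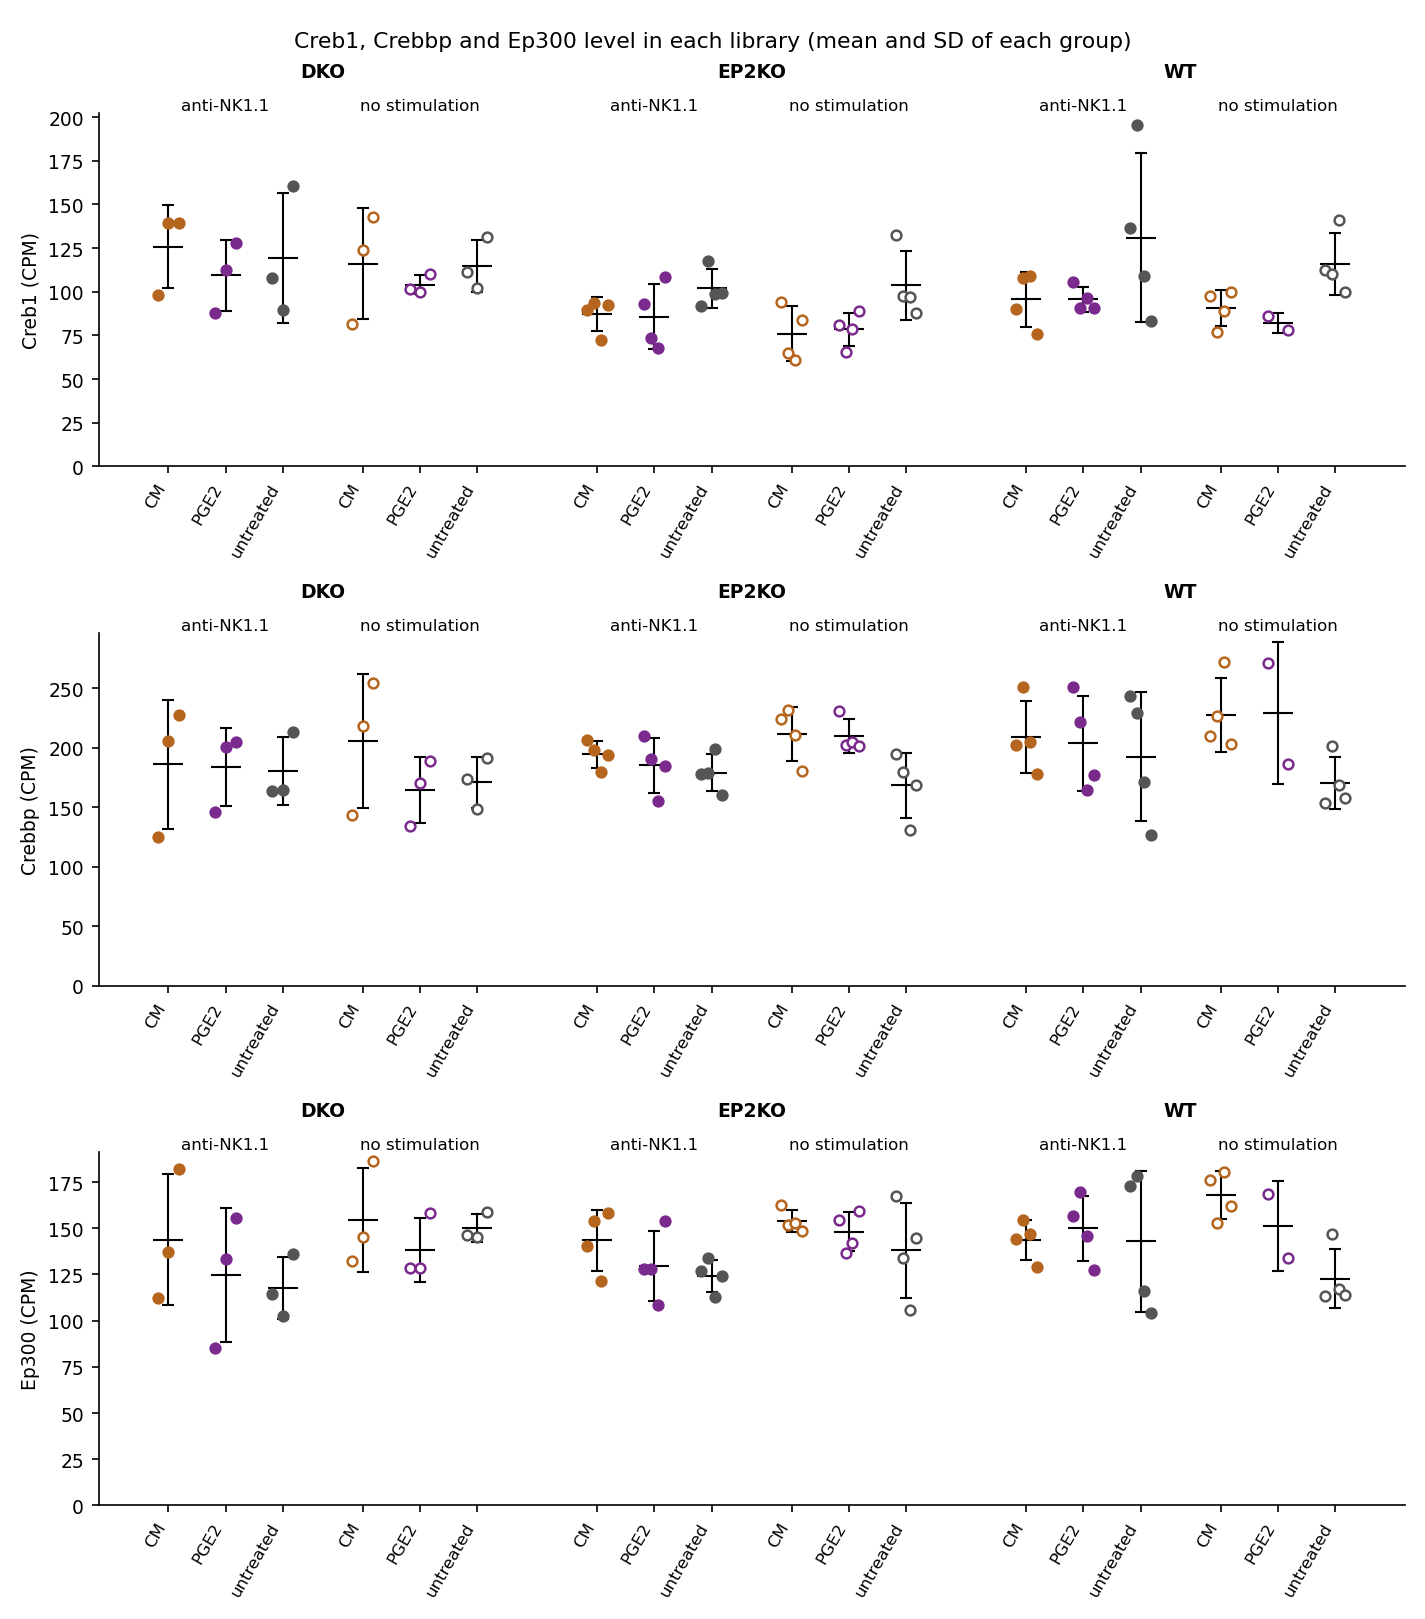
Creb1, Crebbp and Ep300 levels in CPM (vertical axes, linear, from 0) in each library, by genotype, stimulation and treatment; filled points are libraries with anti-NK1.1, open points without, and bars give the mean and SD of each group. In unstimulated WT cells both PGE2 libraries lie below the 4 untreated ones for Creb1 (78.2 and 86.4 against 99.7 to 141 CPM), and the 4 unstimulated WT libraries with CM lie above the 4 untreated ones for Crebbp (203 to 272 against 153 to 202 CPM) and Ep300 (153 to 181 against 113 to 147 CPM).

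Crtc2, on chromosome 3 from 90254163 to 90264125, was close to the limit of detection, with 325 counts in all 64 libraries together and 0 counts in 1 of them, stimulated EP2KO replicate 2 with CM. Its group means were 2.30 to 5.66 CPM, and its treatment changes ran from −0.94 ± 0.60 to 0.60 ± 0.66 log2 units, none called. The 95% interval for PGE2 in unstimulated WT cells was −0.71 to 1.91, and changes within it could not be told from none at this depth.

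**Figure D3:**
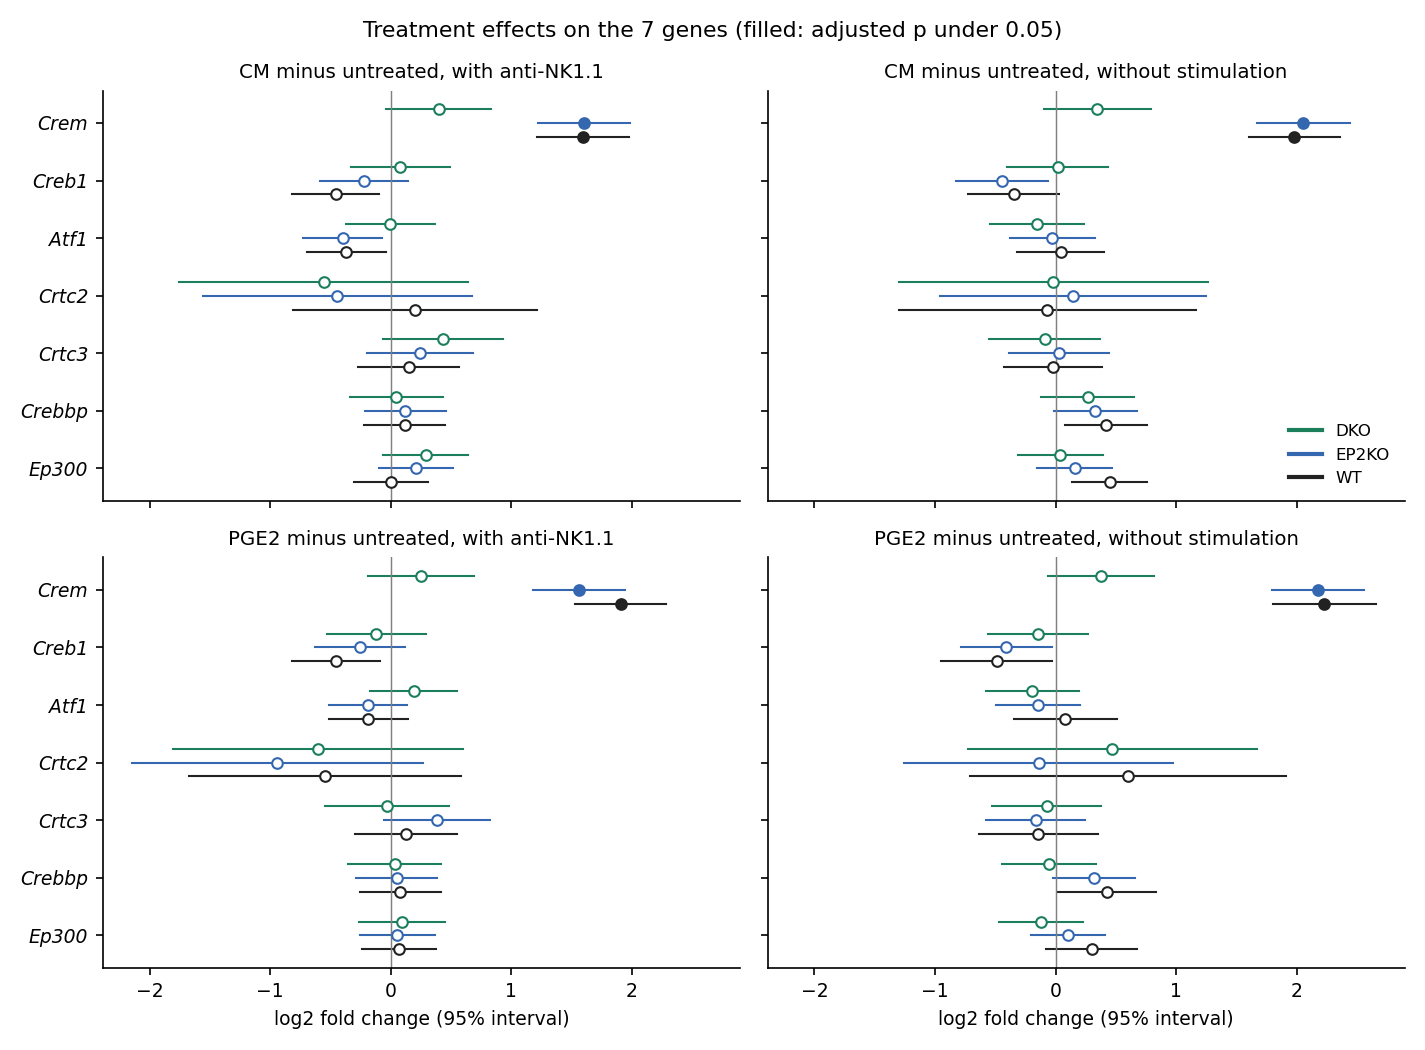
Log2 fold change (horizontal axes) of the 7 genes with CM (upper panels) or PGE2 (lower panels) against untreated cells, with anti-NK1.1 (left) and without (right); green, blue and black points are DKO, EP2KO and WT, lines are 95% intervals, and filled points have an adjusted p under 0.05. Crem in EP2KO and WT, between 1.56 and 2.23, is the only filled gene, and Crtc2 has the widest intervals.

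In untreated cells, where Crem was not called, Atf1 and Crtc3 differed with anti-NK1.1 and in opposite directions. Such calls were common, as stimulation called 30.2% of all genes in DKO, 33.3% in EP2KO and 42% in WT. Atf1, on chromosome 15 from 100227819 to 100261244, encodes a close relative of CREB1 that binds the same element. In untreated DKO cells it was at 65.7, 74.4 and 74.4 CPM with anti-NK1.1, against 53.5, 55.6 and 63.0 CPM without. Untreated EP2KO cells had 84.5, 76.9, 70.2 and 69.2 CPM with anti-NK1.1, against 59.6, 46.2, 58.6 and 45.8 CPM without. In untreated WT cells it was at 87.6, 87.0, 72.3 and 61.5 CPM with anti-NK1.1, against 45.8, 43.1, 56.2 and 47.4 CPM without. In all 3 genotypes the stimulated libraries lay above the unstimulated ones, with no overlap, which was so in either direction for 43.6% of all genes in DKO, 30.9% in EP2KO and 32.4% in WT. Atf1 rose by 0.52 ± 0.17 in EP2KO and 0.69 ± 0.17 in WT (edgeR adjusted p = 0.0116 and 6.33e-04), and its change of 0.32 ± 0.19 in DKO was not called (adjusted p = 0.200), where stimulation called 16.4% of all genes as higher in DKO, 18.4% in EP2KO and 23% in WT. Without EP2KO unstimulated replicate 2 the EP2KO call was lost (adjusted p = 0.0506), as it was with no filter on low counts (adjusted p = 0.0624).

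In PGE2-treated DKO cells Atf1 was at 65.05, 82.1 and 96.6 CPM with anti-NK1.1, against 50.2, 45.7 and 54.5 CPM without, and rose by 0.70 ± 0.19 (edgeR adjusted p = 0.00266). In PGE2-treated EP2KO cells it was at 68.7, 66.4, 56.6 and 73.6 CPM, against 50.9, 50.8, 48.0 and 40.1 CPM, a rise of 0.47 ± 0.17 (edgeR adjusted p = 0.0342). Neither pair of groups overlapped, as for 39.2% of all genes in DKO and 23% in EP2KO, and stimulation called 17.3% of all genes as higher in PGE2-treated DKO cells and 13.4% in EP2KO cells (31.5% and 23.5% in either direction). The EP2KO call was lost without unstimulated replicate 3 or 4 or stimulated replicate 1, 2 or 4 (adjusted p = 0.0571 to 0.108) and with no filter on low counts (adjusted p = 0.127). Atf1 was not called in PGE2-treated WT cells (0.42 ± 0.21, edgeR adjusted p = 0.235), where 5.29% of all genes were called as higher and 8.25% in all. With CM it was not called in DKO (0.47 ± 0.19, edgeR adjusted p = 0.0653), EP2KO (0.14 ± 0.17, adjusted p = 0.617) or WT (0.27 ± 0.18, adjusted p = 0.313), where 25.1%, 23.1% and 16.9% of all genes were called. The DKO change with CM was called without unstimulated replicate 3 or stimulated replicate 1 (adjusted p = 0.0464 and 0.00571). Whether the stimulation response of Atf1 differed with treatment was tested in each genotype, and it was called in none of the 6 tests.

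Crtc3, on chromosome 7 from 80586627 to 80688877, encodes a CREB coactivator of the CRTC family. In untreated DKO cells it was at 18.2, 21.3 and 28.3 CPM with anti-NK1.1, against 35.9, 36.3 and 45.2 CPM without. Untreated EP2KO cells had 22.2, 20.1, 18.2 and 31.1 CPM with anti-NK1.1, against 34.2, 27.4, 40.1 and 51.5 CPM without, while WT cells had 38.8, 29.5, 29.3 and 23.4 CPM, against 37.1, 39.1, 48.6 and 46.5 CPM. Stimulated DKO libraries lay below all unstimulated ones, where the groups did not overlap for 43.6% of all genes, and the EP2KO and WT libraries overlapped. Crtc3 fell by 0.79 ± 0.24 in DKO, 0.73 ± 0.21 in EP2KO and 0.49 ± 0.20 in WT on the log2 scale (edgeR adjusted p = 0.00808, 0.00548 and 0.0454), where 13.8%, 15% and 19.1% of all genes were called as lower. In WT cells the call was lost in DESeq2 (adjusted p = 0.0517), with another TMM trim (0.0536), with no filter on low counts (0.121) and with only the groups compared (0.0621). It was also lost without unstimulated replicate 3 or 4 or stimulated replicate 2, 3 or 4 (adjusted p = 0.0769 to 0.147). In DKO cells it was lost without stimulated replicate 1 (adjusted p = 0.0568).

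With PGE2, stimulated DKO cells had 12.1, 26.9 and 26.3 CPM of Crtc3, against 37.3, 35.7 and 38.5 CPM in unstimulated ones, with no overlap (as for 39.2% of all genes). Crtc3 fell by 0.75 ± 0.24 there (edgeR adjusted p = 0.0135, with 14.2% of all genes called as lower), a call that was lost without stimulated replicate 1 (−0.48, adjusted p = 0.144) and with only the groups compared (adjusted p = 0.0514). In the other treated groups Crtc3 was not called, at −0.27 with CM in DKO, −0.52 with CM and −0.18 with PGE2 in EP2KO, and −0.32 with CM and −0.22 with PGE2 in WT (edgeR adjusted p = 0.0697 to 0.682). The EP2KO change with CM was called without stimulated replicate 4 (−0.68, adjusted p = 0.0254), which at 35.8 CPM stood above the others of its group (23.3 to 24.8 CPM). No treatment comparison called Atf1 or Crtc3. The Atf1 estimates nearest to a call were −0.40 ± 0.16 in EP2KO and −0.37 ± 0.16 in WT stimulated cells with CM (edgeR adjusted p = 0.116 and 0.122). Stimulation called none of Creb1, Crtc2, Crebbp and Ep300 in any of the 9 comparisons. The estimate nearest to a call was that of Ep300 in untreated DKO cells, at 114, 103 and 136 CPM with anti-NK1.1, against 146, 145 and 159 CPM without, with no overlap, as for 43.6% of all genes (−0.35 ± 0.18, edgeR adjusted p = 0.124).

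**Figure D4:**
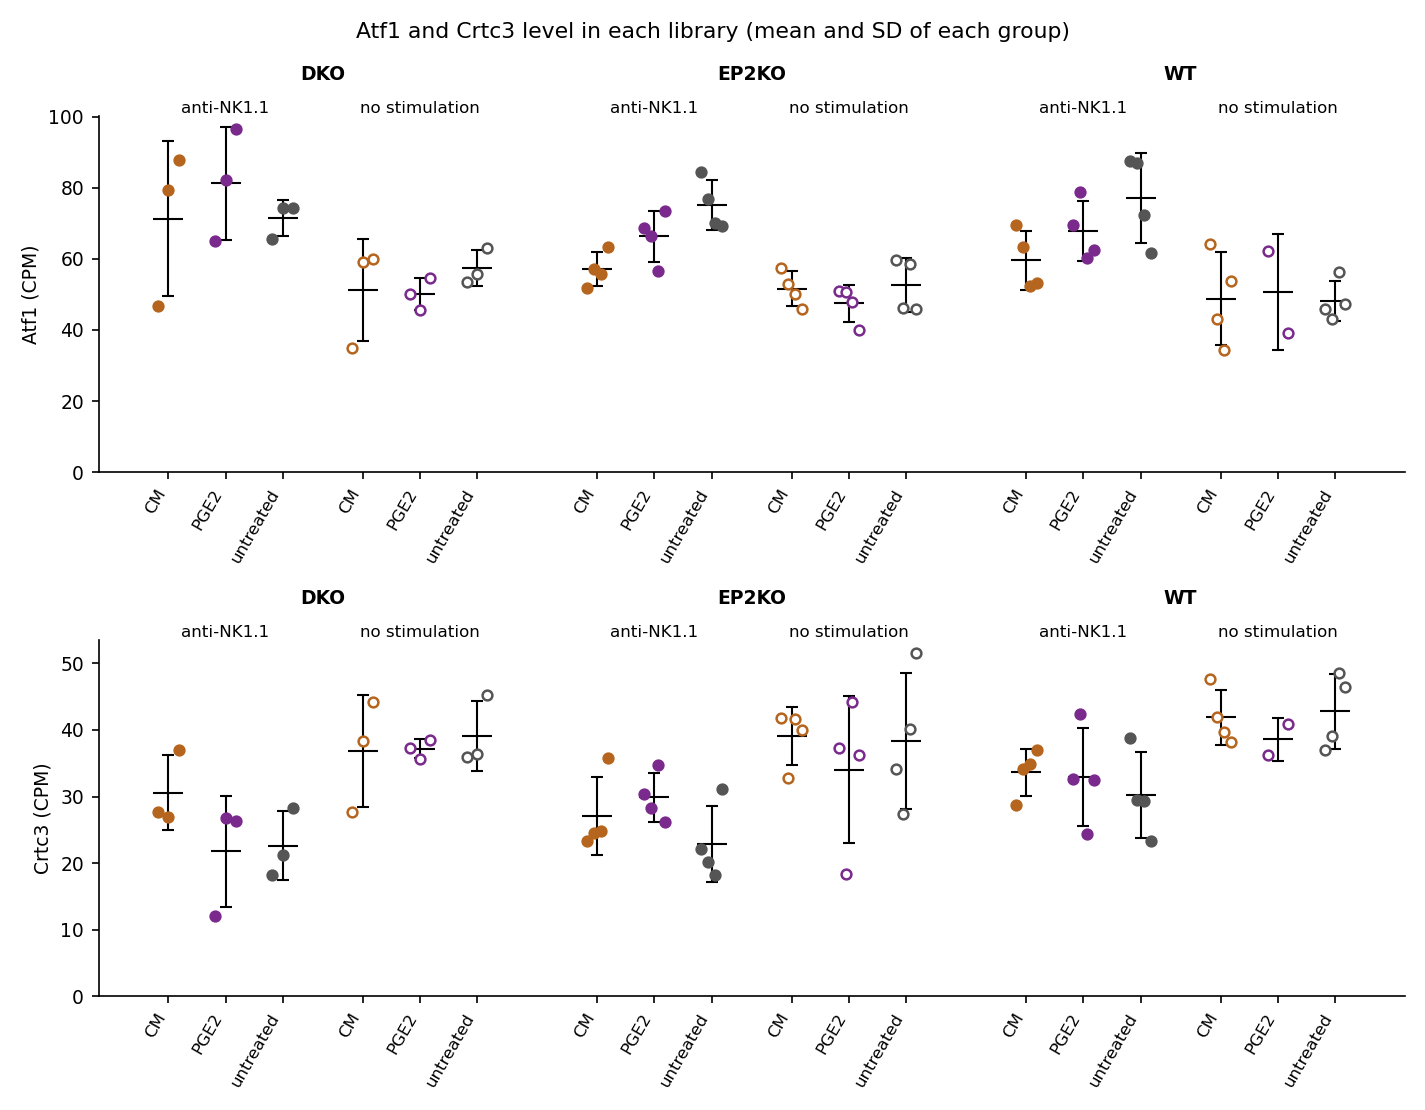
Atf1 and Crtc3 levels in CPM (vertical axes, linear, from 0) in each library, by genotype, stimulation and treatment; filled points are libraries with anti-NK1.1, open points without, and bars give the mean and SD of each group. In untreated cells the filled points lie high for Atf1 (61.5 to 87.6 against 43.1 to 63.0 CPM) and mostly low for Crtc3 (18.2 to 38.8 against 27.4 to 51.5 CPM).

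Across the 18 group means of log2 CPM, the correlations of the other members with Crem had both signs. Pearson's r with Crem was 0.853 for Crebbp, 0.602 for Ep300, 0.284 for Crtc3, −0.189 for Crtc2, −0.388 for Atf1 and −0.821 for Creb1. Atf1 and Crtc3, which answered anti-NK1.1 in opposite directions, had r = −0.826 with each other. These values describe 18 groups that share libraries, depth and scaling across genes, and are given with no p.

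The genes whose group means were most like those of Crem were named by a rule, the 10 highest Pearson correlations over the 18 groups among the 7029 genes whose log2 CPM averaged 4 or more, passing over predicted genes. They were Camk4 (r = 0.977), a calcium and calmodulin kinase that phosphorylates CREB1, the AP-1 gene Fosl2 (0.976), the ADP-ribosyltransferase gene Parp8 (0.973), the triglyceride synthesis gene Dgat1 (0.969), the transcription factor gene Stat3 (0.964), Tmem123 (0.959), the small GTPase gene Rab8b (0.959), the protease inhibitor gene Ctla2a (0.959), the cAMP phosphodiesterase gene Pde4b (0.959) and the adaptor gene Samsn1 (0.958). Of these, 7 were also among the 10 highest by Spearman's rho, and 6 among the 10 highest when DKO groups were left out. The 3 lowest correlations belonged to Cd244a (−0.968), which encodes the NK receptor 2B4, Ptprcap (−0.945), which encodes a partner of the phosphatase CD45, and Chn2 (−0.94), which encodes a Rac GTPase activator.

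In unstimulated cells Camk4 averaged 32.0 CPM with CM and 36.7 CPM with PGE2 in DKO, against 24.7 CPM untreated. In EP2KO it averaged 102 and 110.4 CPM, against 24.3 CPM untreated, and in WT 93.0 and 127 CPM, against 32.5 CPM untreated. As for Crem, the means of treated EP2KO and WT cells lay above those of all DKO and all untreated groups. Pde4b averaged 64.8 and 66.4 CPM in DKO with CM and PGE2, against 51.8 CPM untreated, 118 and 104 CPM in EP2KO, against 51.9 CPM, and 131 and 120.4 CPM in WT, against 52.3 CPM. Parp8 averaged 107 and 89.0 CPM in DKO, against 75.3 CPM, 205 and 206 CPM in EP2KO, against 82.8 CPM, and 237 and 275 CPM in WT, against 67.3 CPM. Cd244a ran the other way, at 60.2 and 61.6 CPM in DKO, against 84.4 CPM, 32.4 and 31.4 CPM in EP2KO, against 84.1 CPM, and 26.9 and 26.9 CPM in WT, against 76.0 CPM.

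**Figure D5:**
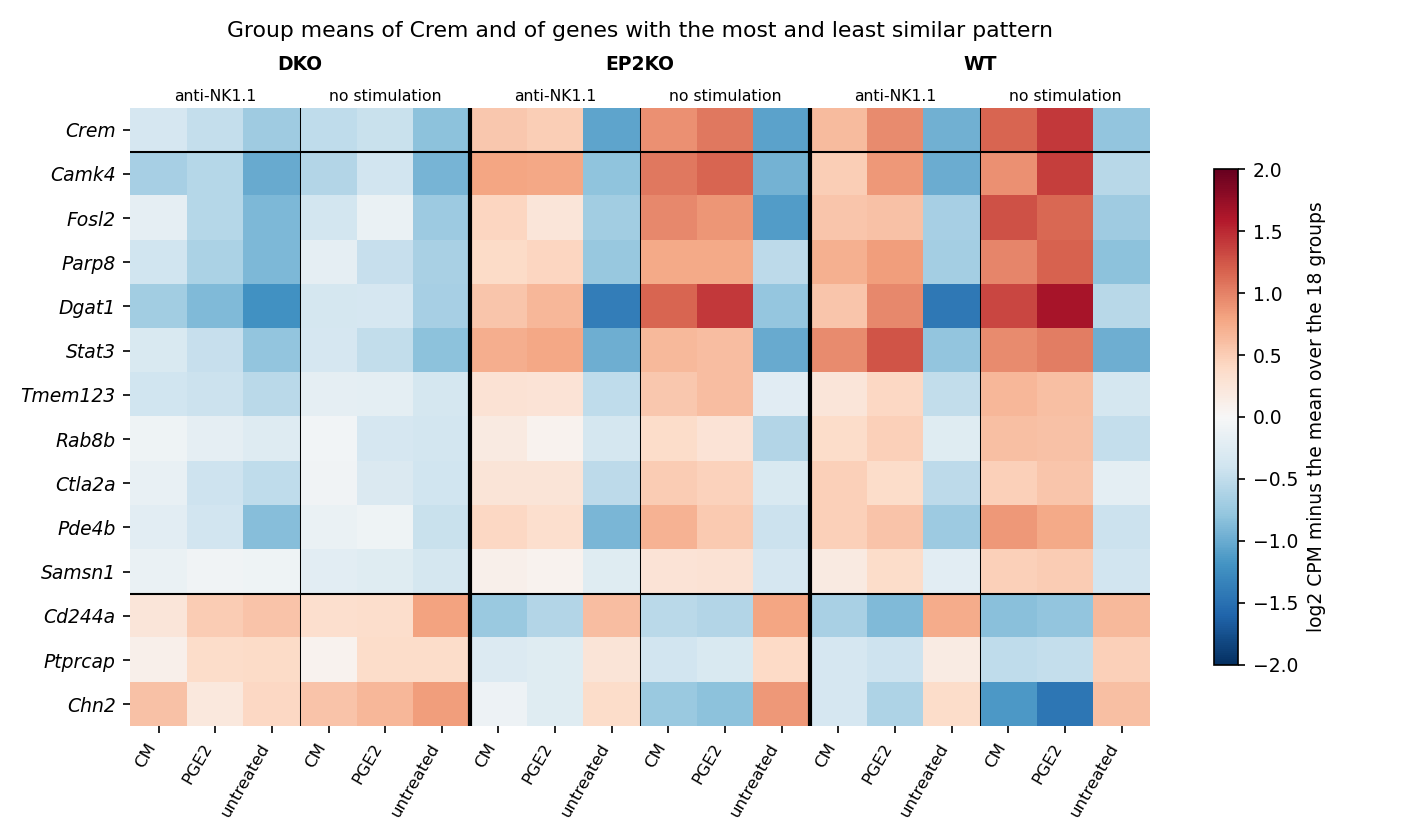
Group mean of log2 CPM minus the gene's mean over the 18 groups (colour, from −2 in blue to 2 in red) for Crem, the 10 genes most like it and the 3 least like it, by genotype, stimulation and treatment. Columns of EP2KO and WT cells with CM or PGE2 are red, in pale to dark shades, for Crem and the 10 genes and blue for Cd244a, Ptprcap and Chn2, while DKO columns are blue or near white for Crem and the 10 genes.

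The cAMP response element is the palindrome TGACGTCA, with the shorter core TGACG, and both were searched on both strands in the RefSeq promoter windows of GRCm38.p6, from 250 bases before to 50 bases after each gene's start. No window was at hand for Crem, Crtc2, Camk4 or Dgat1, so the promoters of these genes were not searched. Windows were at hand for 5 of the 7 members and 8 of the 10 genes most like Crem. The palindrome was in none of them, and was in 2.03% of 27025 genes with a window and 3.98% of 8009 tested genes with a window. The core, which also occurs within the palindrome, was in 1 of the 5 members (Atf1) and in 3 of the 8 other genes (Parp8, Ctla2a and Pde4b), or 37.5%. This is near the share of 38.1% of tested genes with a window, and 23% of all genes with a window held it. The windows of Atf1 (chr15:100227609-100227908, plus strand), Parp8 (chr13:117025482-117025781, minus strand) and Pde4b (chr4:102421305-102421604, plus strand) are shown as those that hold the core among the genes whose levels are given above, and that of Ctla2a is not printed. The core is in capitals, at 90, 67 and 34 bases before the start, and Pde4b has it in 1 of its 4 windows. It reads CGTCA in the printed strand where the core is on the other one. The letters describe the window, and binding was not measured.
Atf1: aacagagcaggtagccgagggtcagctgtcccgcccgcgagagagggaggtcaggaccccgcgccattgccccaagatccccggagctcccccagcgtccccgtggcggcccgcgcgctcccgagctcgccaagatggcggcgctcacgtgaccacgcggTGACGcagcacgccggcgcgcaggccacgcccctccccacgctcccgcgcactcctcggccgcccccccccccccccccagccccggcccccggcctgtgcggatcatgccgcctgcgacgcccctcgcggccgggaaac
Parp8: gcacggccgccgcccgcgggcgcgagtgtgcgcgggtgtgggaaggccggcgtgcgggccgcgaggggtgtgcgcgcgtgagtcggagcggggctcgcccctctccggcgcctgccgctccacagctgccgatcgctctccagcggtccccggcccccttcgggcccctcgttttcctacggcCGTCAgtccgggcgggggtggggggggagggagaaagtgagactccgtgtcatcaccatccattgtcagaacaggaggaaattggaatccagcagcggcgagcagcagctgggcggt
Pde4b: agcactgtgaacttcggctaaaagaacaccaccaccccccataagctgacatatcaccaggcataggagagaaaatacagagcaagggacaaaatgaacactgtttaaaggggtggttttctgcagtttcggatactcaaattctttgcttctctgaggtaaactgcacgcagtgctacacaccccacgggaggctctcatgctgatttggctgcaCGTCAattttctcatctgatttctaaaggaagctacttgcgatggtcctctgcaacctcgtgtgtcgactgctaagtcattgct

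Genes around the CREB factors were grouped in lists, which were chosen with earlier results of these data known. Counts above the shares of all genes are thus no independent support. The first list holds 39 tested target genes of cAMP and CREB, among them the receptor gene Ptger4. In unstimulated cells with CM, 0 of them were called in DKO, 9 were higher and 3 lower in EP2KO, and 9 higher and 3 lower in WT. With PGE2 the counts were 0 in DKO, 9 higher and 2 lower in EP2KO and 8 higher and 1 lower in WT. Their median log2 change was small in every case, 0.05 to 0.20 with CM and 0.04 to 0.11 with PGE2, beside at most 0.01 over all genes tested. In EP2KO and WT, CM called 2.23% and 4.55% of all genes as higher and 2.14% and 3.68% as lower. PGE2 called 1.75% and 1.91% as higher and 1.4% and 1.05% as lower. Rgs2, a regulator of G protein signalling, rose by 1.70 ± 0.15 with CM and 1.68 ± 0.15 with PGE2 in EP2KO and by 1.90 ± 0.15 and 1.85 ± 0.17 in WT. Fosl2 rose by 2.10 ± 0.21 and 2.02 ± 0.20 in EP2KO and by 2.01 ± 0.20 and 1.89 ± 0.23 in WT. Vegfa, an angiogenic growth factor gene, rose by 2.48 ± 0.25 with CM and 2.56 ± 0.28 with PGE2 in WT. The edgeR adjusted p of these 10 changes was 2.97e-10 or lower but for Fosl2 with PGE2 in WT (1.42e-08). In EP2KO Vegfa rose by 1.83 ± 0.25 with PGE2 (edgeR adjusted p = 1.66e-07).

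In stimulated cells the target list split, with 10 higher and 3 lower in EP2KO and 9 higher and 9 lower in WT with CM, and 8 higher and 5 lower in EP2KO and 9 higher and 12 lower in WT with PGE2. The list's medians in EP2KO and WT were −0.02 and −0.06 with CM and 0.07 and −0.16 with PGE2, beside −0.03, −0.04, −0.02 and −0.05 over all genes. In EP2KO and WT, CM called 4.5% and 6.2% of all genes as higher and 5.91% and 9.22% as lower. PGE2 called 3.39% and 6% as higher and 3.9% and 9.63% as lower. Pde4b rose by 1.38 ± 0.16 with CM and 1.31 ± 0.16 with PGE2 in EP2KO and by 1.22 ± 0.16 and 1.32 ± 0.16 in WT (edgeR adjusted p = 1.32e-08 or lower). The immediate early gene Egr1 fell by 1.30 ± 0.17 with CM in WT, and with PGE2 by 1.48 ± 0.18 in EP2KO and 1.49 ± 0.18 in WT (edgeR adjusted p = 3.07e-08 or lower). In DKO cells Vegfa alone of the list was called, at 1.18 ± 0.23 with CM (edgeR adjusted p = 0.0125), where 0.056% of all genes were called as higher and 0.0187% as lower, and none without untreated replicate 2. With anti-NK1.1 in untreated cells, 19 targets were higher and 7 lower in DKO, 22 and 7 in EP2KO and 21 and 7 in WT. Their medians were 0.56, 0.78 and 0.66, beside 0.01 over all genes in each. These comparisons called 16.4%, 18.4% and 23% of all genes as higher and 13.8%, 15% and 19.1% as lower. Nr4a2, an orphan nuclear receptor gene, rose by 2.66 ± 0.18 in DKO, 2.80 ± 0.16 in EP2KO and 2.79 ± 0.16 in WT, and Egr1 by 2.48 ± 0.22, 2.09 ± 0.18 and 2.55 ± 0.19 (edgeR adjusted p = 3.17e-14 or lower). Crem, itself a cAMP-induced gene, was not called in any of these 3 comparisons.

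Of 28 kinases, phosphatases and other regulators of CREB and CRTC proteins, treatment without stimulation called 3 higher in EP2KO and 5 higher and 1 lower in WT with CM, and 2 higher in EP2KO and 3 higher and 1 lower in WT with PGE2. The shares of all genes called as higher in these comparisons were 2.23% and 4.55% with CM and 1.75% and 1.91% with PGE2. In stimulated cells 4 were higher and 1 lower in EP2KO and 4 higher and 2 lower in WT with CM, and 6 were higher in EP2KO and 4 in WT with PGE2. The shares of all genes called as higher were then 4.5% and 6.2% with CM and 3.39% and 6% with PGE2. In unstimulated cells Camk4 rose by 2.05 ± 0.22 and 2.17 ± 0.22 in EP2KO and by 1.52 ± 0.22 and 1.97 ± 0.24 in WT, with CM and PGE2 in turn, and in stimulated cells by 1.59 ± 0.22 and 1.66 ± 0.22 in EP2KO and by 1.56 ± 0.22 and 1.93 ± 0.22 in WT (edgeR adjusted p = 4.23e-07 or lower). Sik1, a salt-inducible kinase gene whose product holds CRTC proteins in the cytoplasm, rose in unstimulated cells by 1.53 ± 0.28 and 1.74 ± 0.27 in EP2KO with CM and PGE2 and by 1.31 ± 0.31 with PGE2 in WT (edgeR adjusted p = 1.33e-04, 5.04e-06 and 0.00514). In stimulated cells Sik1 rose by 1.06 ± 0.25 and 1.66 ± 0.24 in EP2KO and by 1.54 ± 0.24 and 1.49 ± 0.25 in WT, with CM and PGE2 in turn (edgeR adjusted p = 0.00187 or lower). The S6 kinase gene Rps6ka1 fell by 0.54 ± 0.14 with CM and 0.69 ± 0.18 with PGE2 in unstimulated WT cells, and with CM by 0.57 ± 0.14 in EP2KO and 0.63 ± 0.14 in WT stimulated cells (edgeR adjusted p = 0.0132 or lower). With anti-NK1.1 in untreated cells Prkacb, a catalytic subunit gene of protein kinase A, fell by 1.19 ± 0.16 in DKO, 1.14 ± 0.14 in EP2KO and 1.07 ± 0.14 in WT (edgeR adjusted p = 9.70e-09 or lower), and the list had 4 higher and 7 lower in DKO, 4 and 9 in EP2KO and 5 and 6 in WT, beside 16.4% and 13.8% of all genes in DKO, 18.4% and 15% in EP2KO and 23% and 19.1% in WT.

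Of 14 other CREB and ATF relatives 10 were tested, and without stimulation 0 were called in EP2KO by either treatment or in WT by PGE2, and 2 were higher with CM in WT. These were Creb3l2, at a mean of 25.6 CPM with CM, against 11.7 CPM untreated (edgeR adjusted p = 0.00496), and Cebpb, at 55.8 CPM, against 28.8 CPM (edgeR adjusted p = 0.0310). Both encode leucine zipper factors. Crebrf, which encodes a regulator of the CREB3 branch, was lower with anti-NK1.1 in untreated cells, where it fell by 1.63 ± 0.20 in DKO, 1.79 ± 0.18 in EP2KO and 1.33 ± 0.17 in WT on the log2 scale. It was higher with treatment in stimulated cells, by 0.92 ± 0.18 with CM and 0.65 ± 0.19 with PGE2 in EP2KO and by 0.77 ± 0.18 and 0.90 ± 0.18 in WT (edgeR adjusted p of these 7 changes 0.0176 or lower). Crebl2 was also higher with PGE2 in stimulated EP2KO cells (1.18 ± 0.32, edgeR adjusted p = 0.0123). Treatment of stimulated EP2KO and WT cells called 4.5% and 6.2% of all genes as higher with CM and 3.39% and 6% with PGE2. Of 17 other acetyltransferases and partners of CBP and p300, 2 were higher with CM in both EP2KO and WT without stimulation. They were Myb (1.01 ± 0.25 in EP2KO and 1.49 ± 0.25 in WT) and Hif1a (0.54 ± 0.14 and 0.87 ± 0.14), transcription factors that bind these coactivators (edgeR adjusted p = 0.0111 or lower). With PGE2, Hif1a rose by 0.84 ± 0.14 in EP2KO and 1.06 ± 0.16 in WT unstimulated cells. Myb was called with PGE2 only in WT, at 1.47 ± 0.29 (edgeR adjusted p of these 3 changes 4.18e-04 or lower). Without stimulation CM called 2.23% of all genes as higher in EP2KO and 4.55% in WT, and PGE2 1.75% and 1.91%. In stimulated cells 3 of the 17 were higher and 0 lower in each of the 4 EP2KO and WT comparisons, and anti-NK1.1 in untreated cells gave 1 higher and 6 lower in DKO, 0 and 4 in EP2KO and 3 and 4 in WT, beside the same shares of all genes as for the regulators. In DKO cells 0 genes of these 3 lists were called by either treatment in either state.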

How the data were processed

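RNA of mouse NK cells was profiled by bulk 3′ mRNA sequencing with a barcoded oligo-dT primer and molecular identifiers, per the labels' protocols. The authors deposited raw counts per gene, whole numbers, in 1 table of 64 libraries. The submitters' processing notes name GRCm38, mm10 and DESeq2. The aligner, the counter, the annotation, the use of strand and the collapsing of molecular identifiers were not stated in the material used. Library totals were 753973 to 1693750 counts.

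Library columns were matched to samples by their labels. Counts were fitted with edgeR 4.0.16 (limma 3.58.1, R 4.3.3) as 1 mean for each of 18 groups, after TMM scaling and filterByExpr with a minimum count of 10, with the robust quasi-likelihood test. P-values were adjusted by Benjamini-Hochberg over 10723 genes and called under 0.05, in 51 comparisons. CPM values are computed on TMM-scaled library sizes, and errors of log2 fold changes are standard errors. The method was also run on counts simulated independently for each library. That run holds no shared deviations of same-numbered libraries, so it does not bear on them. Positions are from GENCODE M21 on GRCm38 and promoter windows from RefSeq on GRCm38.p6, and figures were drawn with matplotlib 3.10.9 in Python 3.11.15.

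The 7 members and the gene lists were chosen with earlier results of these data known. All members are named in every main comparison, and of each list up to 4 called genes with the smallest p. Genes like Crem were ranked on group means of log2 CPM with a prior count of 2. Alternatives were DESeq2 size factors, a TMM log ratio trim of 0.45, no filter on low counts, DESeq2 1.42.0, only the groups compared, a replicate block and leaving out each library.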

Additional observations from a re-analysis of the deposited data

Results flagged for a closer look

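In 3 groups of 4 libraries 1 library stood apart from the rest by the gap to its nearest neighbour. Crtc3 was at 35.8 CPM in stimulated EP2KO replicate 4 with CM, where the others had 23.3 to 24.8 CPM. Crebbp was at 231 CPM in unstimulated EP2KO replicate 1 with PGE2, where the others had 202 to 205 CPM. Ep300 was at 147 CPM in unstimulated untreated WT replicate 2, where the others had 113 to 117 CPM. In all, 77 groups of 4 libraries were examined over the 7 genes, and chance gives such a gap in about 1 of 20 groups.

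The treatment effect on Crem differed between genotypes by a test of the difference itself in all 8 comparisons with DKO. For PGE2 without stimulation, the log2 effect in DKO minus that in EP2KO was −1.80, and DKO minus WT was −1.85. For CM without stimulation the differences were −1.71 against EP2KO and −1.63 against WT. With anti-NK1.1 they were −1.31 and −1.66 for PGE2 and −1.20 and −1.19 for CM, against EP2KO and WT in turn. Genotype and sex cannot be told apart in these tests.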

How the results depend on the processing

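All 8 Crem changes with CM or PGE2 in EP2KO and WT cells kept their direction and their call under every alternative run, and no called Crem value changed sign. With only the groups compared, the difference in CM effect between DKO and EP2KO stimulated cells was −1.24 (adjusted p = 0.0776). Leaving out 1 library, that difference ran from −1.37 to −1.07, and that between DKO and WT from −1.31 to −1.08. The Crem change with anti-NK1.1 ran from −0.71 to −0.47 in EP2KO cells with PGE2 (−0.708 and −0.465), from −0.67 to −0.47 in WT cells with CM (−0.6735 and −0.4745), and from −0.53 to −0.18 in EP2KO cells with CM. The cause was not tested. Scaling moved the median of all genes by at most 0.0264 on the log2 scale.

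Replicate numbers are shared across groups, but the labels do not say what they mark. Deviations of same-numbered libraries had a median correlation of 0.588 in DKO, 0.441 in EP2KO and 0.557 in WT, against −0.279, −0.159 and −0.21 for different numbers, and 41 of 45, 57 of 60 and 42 of 50 pairs were over 0.1. With a replicate block within genotype, Crem was called as lower with anti-NK1.1 in PGE2-treated WT cells (−0.57, adjusted p = 0.00141) and CM-treated EP2KO cells (−0.39, adjusted p = 0.00498). The block also called Creb1 in stimulated WT cells with CM (−0.45) and PGE2 (−0.44), Atf1 in stimulated EP2KO (−0.40) and WT (−0.37) cells with CM, Crebbp (0.42) and Ep300 (0.46) in unstimulated WT cells with CM, and, with anti-NK1.1, Atf1 (0.46) in DKO and Crtc3 (−0.53) in EP2KO cells with CM and Ep300 (−0.36) in untreated DKO cells. The members called in unstimulated WT cells with CM were 3 with the block and 3 with only the groups compared, against 1. All genes called there were 1755 and 1744, against 883. In unstimulated EP2KO cells the block called 833 genes with CM and 646 with PGE2, against 469 and 338, and in WT cells with PGE2 679, against 318. In stimulated WT cells a fit of only the groups compared called 760 genes with CM and 817 with PGE2, against 1654 and 1676. In stimulated EP2KO cells the block called 1713 and 1254 genes and the fit with no filter 742 and 520, against 1117 and 782. In stimulated DKO cells with CM the counts were 70 with the block, 25 in DESeq2, 21 with no filter and 0 with only the groups compared, against 8.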
